A study of Mus musculus with 6 samples.

Results

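Fibrinogen, albumin, alpha-fetoprotein, transthyretin, hemopexin and the alpha-1-microglobulin/bikunin precursor are plasma proteins that are made mainly in the liver, and their transcripts were followed here in jejunal intestinal epithelial cells (IEC). The genes were chosen by name from a list of 10, Fga, Fgb, Fgg, Alb, Afp, Ttr, Ahsg, Hp, Hpx and Ambp, and 8 of them are among the 19616 genes of the deposited count table. Ahsg and Hp were not analysed here. The list was drawn up with the difference between control and Hdac1/2-deleted IEC already in view, so the members' levels and fold changes in that comparison are given as a description, with no test.

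Transcripts were counted in jejunal IEC, enriched with EDTA, of 3 wild-type control mice, named C1, C3 and C3-3, and of 3 villin-Cre Hdac1-/-; Hdac2-/- mice, named H1, H5 and H9, all aged 3 months, with 1 library per mouse. The mice were of mixed C57BL/6J, 129SV and CD1 background. Villin-Cre is active in the epithelium of the intestine, and the state of both deacetylase genes in other cell types of these mice was not measured here. HDAC1 and HDAC2 remove acetyl groups from histones and other proteins and work in corepressor complexes. In control IEC Hdac1 was at 34.5 to 48.9 CPM (counts relative to the TMM-scaled library total) and in Hdac1/2-deleted IEC at 2.53 to 4.81 CPM. Whole-gene counts of Hdac2 did not separate the groups, at 23.6 to 32.9 and 21.4 to 26.6 CPM, and which exons were deleted is not given in the sources used here. Library totals ran from 36111035 counts in H5 to 65902344 in C1, and 3 counts, taken as the lowest level that can be shown, equalled 0.0405 to 0.0790 CPM, which covers counting error only. Y-linked genes had 3082 counts in C3 and 1 to 13 in each of the other libraries. Only the control C3 thus had the counts of a male, so that sex was not balanced between the groups. Where a result turned on C3, sex and other traits of that mouse cannot be told apart.

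Hepatocytes secrete these proteins into blood. Fibrinogen is built from pairs of an alpha, a beta and a gamma chain, and thrombin turns it into fibrin. Albumin carries fatty acids, hormones and drugs, and alpha-fetoprotein is its fetal relative, made in yolk sac, fetal liver and fetal gut and silenced after birth. Transthyretin carries thyroxine and, with retinol-binding protein, retinol. Hemopexin binds free heme, and Ambp is cut into the small lipocalin alpha-1-microglobulin and the protease inhibitor bikunin. In the liver, fibrinogen and hemopexin are positive acute-phase genes, which interleukin-6 raises through STAT3 and C/EBP factors, whereas albumin and transthyretin are negative acute-phase genes.

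The 8 genes did not move as 1 block. Fga, Fgb, Fgg, Ttr, Hpx and Ambp were higher in each Hdac1/2-deleted mouse than in any control mouse, Alb was lower in each, and Afp overlapped between the groups. Groups were apart in 7 of 8 members, where 53.2% of all 15618 genes tested had groups that do not overlap. With edgeR's quasi-likelihood test, 12.4% of genes tested were called increased and 12.7% decreased, a call being a change of at least 2-fold at an adjusted p of at most 0.05. Of the 7 members that passed the filter on low counts, 5 met that rule upward (Fga, Fgg, Ttr, Hpx and Ambp) and 1 downward (Alb). Fgb did not pass the filter. Fga, Fgg and Hpx passed it only through their counts in Hdac1/2-deleted mice, so that these counts describe the choice of genes and support nothing beyond it.

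**Figure D1:**
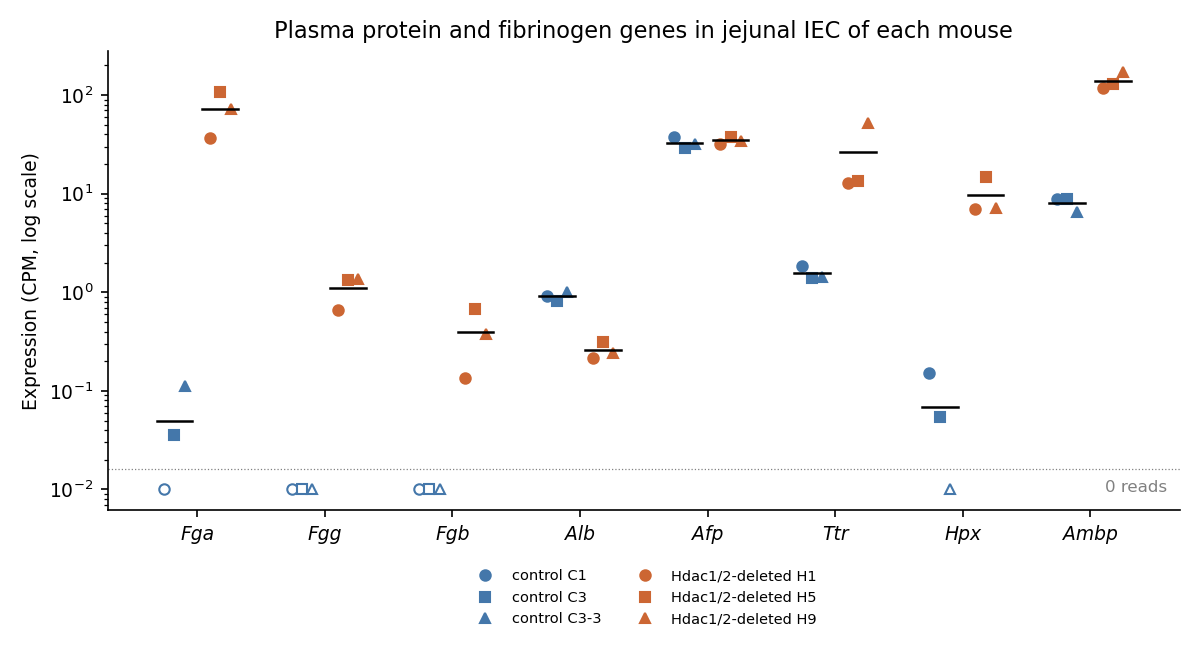
CPM of the 8 plasma protein genes in each mouse on a log axis, with 1 symbol per library, blue for the 3 control and orange for the 3 Hdac1/2-deleted mice. Open symbols mark libraries with 0 counts and black bars the group means. Fga spans 0 to 0.113 CPM in control and 36.5 to 107 CPM in Hdac1/2-deleted IEC, whereas the 6 Afp values lie between 29.3 and 38.0 CPM.

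The fibrinogen genes lie side by side on chromosome 3 (GRCm38 coordinates of GENCODE gene models throughout). Fgg (ENSMUSG00000033860) spans chr3:83007724-83015049 on the plus strand, Fga (ENSMUSG00000028001) chr3:83026076-83033627 on the plus strand, and Fgb (ENSMUSG00000033831) chr3:83040141-83049863 on the minus strand. Between Fgg and Fga lie 11 kb and between Fga and Fgb 6.5 kb. Because the chains are joined in equal numbers in the protein and their genes share regulators in liver, the bases ahead of their starts are shown, together with those of Alb and Afp, the members that did not rise. Each stretch is from RefSeq's GRCm38.p6, runs 5′ to 3′ along the strand of the gene and ends next to the RefSeq start, except that of Fga. The stretch of Fga covers -150 to -78 because the GENCODE gene begins 77 bases ahead of the RefSeq start. For Alb and Afp the RefSeq starts, chr5:90460870 and chr5:90490714, lie ahead of the GENCODE starts, so that their stretches end short of the GENCODE genes. Capitals mark CTGGGA, the core of the type II interleukin-6 response element, TTGCNNAA, a C/EBP site, and TATAAA, each on either strand.
Fgg, chr3:83007574-83007723, plus strand: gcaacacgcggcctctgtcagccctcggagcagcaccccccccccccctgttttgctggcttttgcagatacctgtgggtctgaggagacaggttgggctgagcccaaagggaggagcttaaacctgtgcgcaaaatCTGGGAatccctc
Fga, chr3:83026003-83026075, plus strand: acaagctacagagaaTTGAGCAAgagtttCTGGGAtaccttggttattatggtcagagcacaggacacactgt
Fgb, chr3:83049864-83050013, minus strand: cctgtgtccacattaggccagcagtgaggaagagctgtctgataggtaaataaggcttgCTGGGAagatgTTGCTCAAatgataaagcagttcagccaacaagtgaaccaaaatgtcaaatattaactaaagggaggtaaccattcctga
Alb, chr5:90460720-90460869, plus strand: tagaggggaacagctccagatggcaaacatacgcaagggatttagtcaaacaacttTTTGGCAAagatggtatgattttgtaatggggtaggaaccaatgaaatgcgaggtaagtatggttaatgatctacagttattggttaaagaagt
Afp, chr5:90490564-90490713, plus strand: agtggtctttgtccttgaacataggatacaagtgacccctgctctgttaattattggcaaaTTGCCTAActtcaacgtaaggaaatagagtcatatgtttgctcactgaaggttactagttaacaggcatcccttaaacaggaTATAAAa

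In the 150 bases before the RefSeq start, searched on both strands in 7 members (Ttr was not searched), CTGGGA was present in Fga, Fgb and Fgg and in none of the other 4, and 17.7% of 32851 RefSeq promoter windows of that length held it. The C/EBP letters stood before Fga, Fgb, Alb and Afp, against 5.46% of windows. In Fga the C/EBP letters sat at -135 to -128 with CTGGGA at -121 to -116, and in Fgb CTGGGA sat at -91 to -86 with the C/EBP letters at -80 to -73. These positions count from the RefSeq start, which for Fga lies 77 bases inside the GENCODE gene and for Fgb coincides with its start. The positions of the 2 genes are thus not directly comparable. In these windows, the STAT letters TTCNNNGAA (4.09% of windows), the FOXA letters TGTTTAC (1.80%) and the HNF4 letters AAAGTCC (2.19%) had no match in the 7 members, and TATAAA (7.57%) matched only in Afp, at -7 to -2 of the RefSeq start. These are matches of letters, which say nothing of binding in these cells. The C/EBP letters were shared by genes that were higher, lower and level in Hdac1/2-deleted IEC.

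Fga, which encodes the alpha chain, went from near 0 to an abundant transcript. It had 0 counts in C1, 2 in C3 and 6 in C3-3, and 2704 in H1, 4046 in H5 and 4409 in H9. These correspond to 0, 0.0360 and 0.113 CPM in control and 36.5, 107 and 71.7 CPM in Hdac1/2-deleted mice. The groups lay more than 2 orders of magnitude apart. Mean expression was 0.0496 ± 0.0577 CPM (SD, n = 3) in control and 71.6 ± 35.0 CPM in Hdac1/2-deleted IEC, which gave 10.53 ± 0.78 (SE) on the log2 scale. Per kb of exon, the level of Fga exceeded that of 6.90% of all genes in control and 89.6% in Hdac1/2-deleted IEC. The control level lies at or near the floor of 3 counts, and leaving out C3-3, which holds 6 of the 8 control counts, moved the log2 fold change to 11.92.

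Fgg, the gamma chain gene, had 0 counts in each control library and 49, 51 and 83 counts in H1, H5 and H9. Expression in Hdac1/2-deleted IEC was 0.661, 1.34 and 1.35 CPM, on average 1.12 ± 0.395 CPM (SD, n = 3). Against 3 counts over the control group this was at least 61.5-fold higher. Fgg overlaps the annotated lincRNA Gm30097 on the opposite strand, and the strand setting of the counting is not given in the sources used here.

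The beta chain gene Fgb also had 0 counts in each control library, and 10, 26 and 23 counts in H1, H5 and H9. Its level was 0.135, 0.684 and 0.374 CPM, on average 0.398 ± 0.276 CPM (SD, n = 3), at least 19.8-fold higher than 3 counts over the control group. All 3 chain genes were thus above any control library in each Hdac1/2-deleted mouse, and in each of them H1 was lowest.

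The chains were far from equal. Per kb of exon, Fga was at 23.8 ± 11.6 CPM per kb in Hdac1/2-deleted IEC, Fgg at 0.534 ± 0.189 and Fgb at 0.104 ± 0.0723. Within a library, the per-kb level of Fga was 43.5 ± 10.1 times that of Fgg (range 36.9 to 55.2) and 261 ± 74.3 times that of Fgb (range 197 to 342). Fgg was 6.35 ± 2.68 times Fgb, with a range of 3.57 to 8.92. The order Fga, Fgg, Fgb held in each of the 3 mice, and neither the range of Fga against Fgg nor that of Fgg against Fgb reached 1. These ratios were not available in control IEC, where Fgb and Fgg had 0 counts.

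Albumin and alpha-fetoprotein come from a pair of related genes on chromosome 5 that lie 14.1 kb apart and in the same orientation. Alb (ENSMUSG00000029368) spans chr5:90460897-90476602 and Afp (ENSMUSG00000054932) chr5:90490737-90508907, both on the plus strand. Alb was the only member that was lower in Hdac1/2-deleted IEC. It had 61, 45 and 53 counts in C1, C3 and C3-3 and 16, 12 and 15 in H1, H5 and H9, or 0.921, 0.810 and 0.997 CPM against 0.216, 0.316 and 0.244 CPM. No Hdac1/2-deleted mouse reached the lowest control mouse. The means were 0.910 ± 0.0941 and 0.259 ± 0.0516 CPM (SD, n = 3), so that Alb was 3.52-fold higher in control IEC, with a log2 fold change of -1.82 ± 0.38 (SE). Alb, the most abundant liver transcript, was thus below 1 CPM in all 6 libraries.

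Afp was among the better expressed members in both groups. It had 2487, 1628 and 1690 counts in C1, C3 and C3-3 and 2356, 1444 and 2125 in H1, H5 and H9, which gave 37.5, 29.3 and 31.8 CPM in control and 31.8, 38.0 and 34.5 CPM in Hdac1/2-deleted mice. The groups overlapped. Their means were 32.9 ± 4.22 and 34.8 ± 3.11 CPM (SD, n = 3), with a log2 fold change of 0.08 ± 0.15 (SE), and Afp stood above 79.9% and 80.2% of genes per kb of exon. On library totals without TMM the log2 fold change was 0.26. The gene overlaps an antisense RNA, Gm43449, whose reads could not be told apart without the strand setting.

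Within a library, Afp exceeded Alb per kb of exon by 25.2 ± 3.09 times in control (range 22.2 to 28.4) and 94.9 ± 9.88 times in Hdac1/2-deleted IEC (range 83.7 to 102). The wider ratio came with the lower level of Alb.

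**Figure D2:**
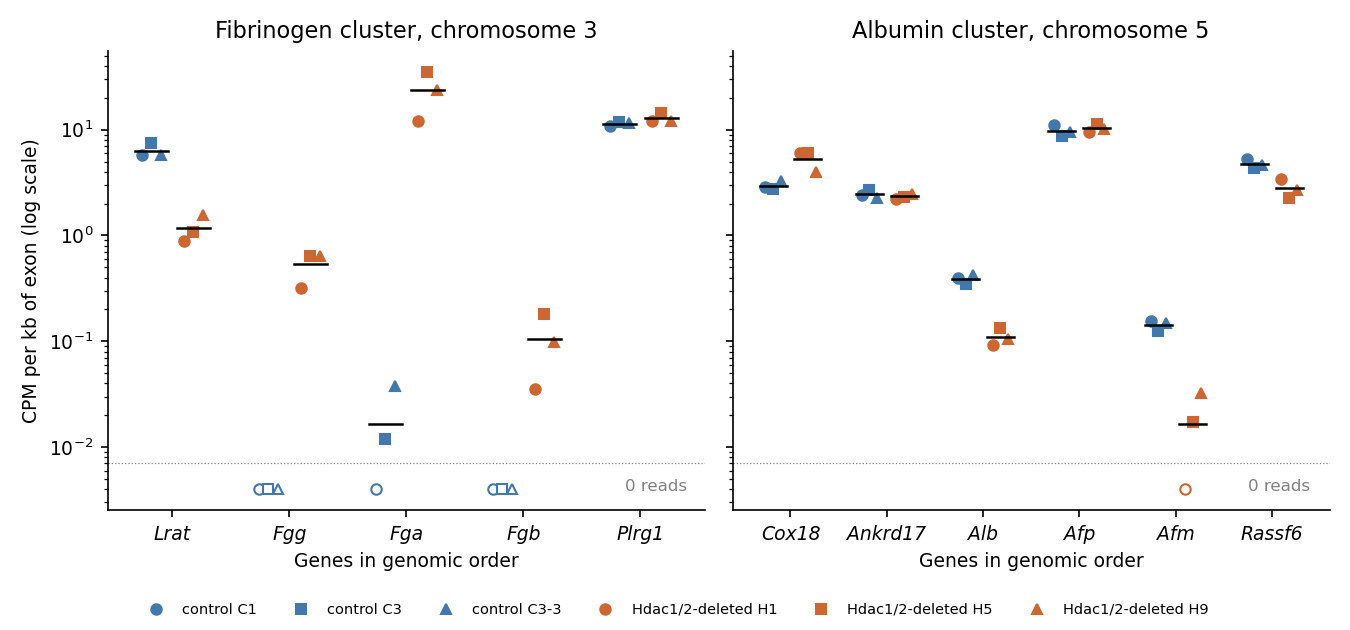
CPM per kb of exon on a log axis for the members and selected neighbouring genes, in genomic order, at the fibrinogen locus on chromosome 3 and the albumin locus on chromosome 5. Symbols are single libraries of control (blue) and Hdac1/2-deleted (orange) mice, bars group means, and open symbols 0 counts. The 3 fibrinogen genes are higher in Hdac1/2-deleted mice between Lrat, which is lower, and Plrg1, and Alb and Afm are lower on both sides of Afp.

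Ttr (ENSMUSG00000061808, chr18:20665280-20674321, plus strand) had 122, 78 and 76 counts in C1, C3 and C3-3 and 948, 506 and 3240 in H1, H5 and H9. In CPM, control mice were at 1.84, 1.40 and 1.43 and Hdac1/2-deleted mice at 12.8, 13.3 and 52.7. H1 and H5 were close to each other, and H9 stood 4.03-fold above their mean, a ratio that 89 of the 15618 genes tested (0.570%) reached or passed. Group means were 1.56 ± 0.246 and 26.3 ± 22.9 CPM (SD, n = 3), with a log2 fold change of 4.07 ± 0.65 (SE), and of 3.07 without H9. The lowest Hdac1/2-deleted mouse was still above the highest control mouse.

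Hpx (ENSMUSG00000030895, chr7:105591613-105600137, minus strand) had 10, 3 and 0 counts in C1, C3 and C3-3 and 522, 564 and 438 in H1, H5 and H9. Its level was 0.151, 0.0540 and 0 CPM in control and 7.05, 14.8 and 7.12 CPM in Hdac1/2-deleted mice. H5 was the highest and the other deleted libraries were nearly equal. Means were 0.0683 ± 0.0765 and 9.67 ± 4.48 CPM (SD, n = 3). The log2 fold change was 7.02 ± 0.74 (SE), and 8.35 without C1, which holds most of the control counts.

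Ambp (ENSMUSG00000028356, chr4:63143275-63154799, minus strand) was the most abundant member in Hdac1/2-deleted IEC. It had 592, 486 and 350 counts in C1, C3 and C3-3 and 8717, 4888 and 10637 in H1, H5 and H9, which corresponded to 8.94, 8.75 and 6.59 CPM against 118, 129 and 173 CPM. Both groups were tight compared with the gap between them. The means were 8.09 ± 1.31 and 140 ± 29.2 CPM (SD, n = 3), and the log2 fold change was 4.11 ± 0.21 (SE), the smallest SE among the members that were higher. Per kb of exon, Ambp exceeded 72.4% of genes in control and 97.2% in Hdac1/2-deleted IEC.

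The members differed in how far the Hdac1/2-deleted mice spread. The coefficient of variation over H1, H5 and H9 was 8.95% for Afp, 19.9% for Alb, 20.9% for Ambp, 35.4% for Fgg, 46.4% for Hpx, 48.9% for Fga, 69.3% for Fgb and 87.1% for Ttr. Of the 8 members, 5 were highest in H5 and 3 in H9, and none in H1, whereas H1 was highest for 35.2% of all genes tested.

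**Figure D3:**
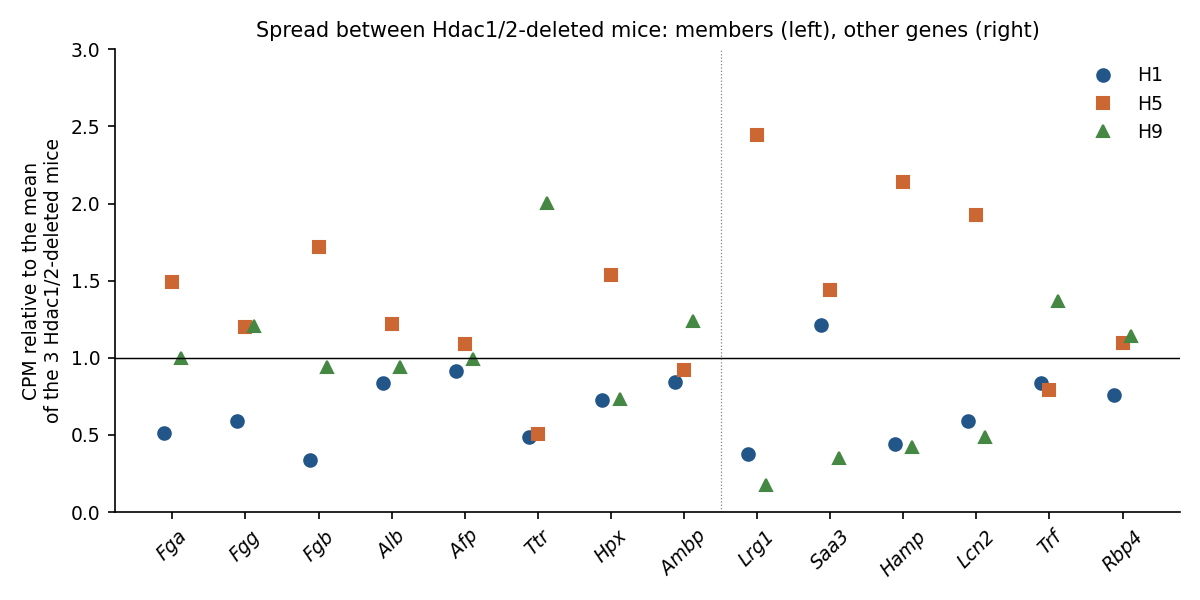
CPM of the 8 members (left) and of 6 further plasma and acute-phase genes (right) in each Hdac1/2-deleted mouse, divided by the mean of the 3 mice, on a linear axis with 1 symbol per library. Afp varied least and Ttr most among the members, with H9 far above H1 and H5 for Ttr, while H5 is highest for Lrg1, Saa3, Hamp and Lcn2.

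Other plasma proteins of hepatocytes were looked at next, from a list of 36 names of which 19 were in the table and 14 were tested. Of these, 8 were increased and 1 decreased, where 12.4% and 12.7% of all genes were. Of the 8, Lcat, Fetub, Serpina6, Kng2, Hamp and Kng1 had at most 3 counts over the control group and were tested only through their counts in Hdac1/2-deleted mice, so that no share of this list is read against that of all genes. Trf, the gene of the iron carrier transferrin, rose from 0.649, 1.12 and 1.15 CPM in control to 84.3, 79.2 and 138 CPM in Hdac1/2-deleted mice (log2 fold change 6.70 ± 0.34, adjusted p = 5.9e-06 in edgeR's quasi-likelihood test after Benjamini-Hochberg adjustment, as for all adjusted p-values here). Rbp4, which carries retinol and travels with transthyretin, rose from 3.49 to 4.52 CPM in control to 35.6 to 53.3 CPM (log2 fold change 3.58 ± 0.21, adjusted p = 8.2e-06). Hamp, which encodes the iron hormone hepcidin, had 2 counts over the 3 control libraries and 0.918, 4.47 and 0.878 CPM in H1, H5 and H9 (adjusted p = 0.0016). The kininogen gene Kng1 had 0 counts in control and 0.513, 0.579 and 1.25 CPM in Hdac1/2-deleted mice. Afm, the albumin relative afamin, fell by 3.13 on the log2 scale (SE 0.78, adjusted p = 0.011) from 0.378 to 0.468 CPM to at most 0.0975 CPM. Mbl2, a mannose-binding lectin, was at 5.82 to 76.4 CPM in control and 102 to 163 CPM in Hdac1/2-deleted mice and did not pass the test (adjusted p = 0.18). Leaving out C3 took it past the limits, at a log2 fold change of 1.24 and an adjusted p of 0.040.

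In the list of positive acute-phase genes, 16 were tested, 6 rose and 2 fell (37.5% increased, against 12.4% of all genes), and their median log2 fold change was 2.09. Of the 6, Hamp, Saa3 and Lcn2 had 2, 33 and 28 counts over the control group. They passed the low-count filter only through their counts in Hdac1/2-deleted mice, so that this share is not read against that of all genes. Lrg1, a leucine-rich glycoprotein of acute-phase serum, had 0.453 to 0.602 CPM in control, and 46.9, 304 and 21.9 CPM in H1, H5 and H9 (log2 fold change 7.84 ± 1.42, adjusted p = 0.010). Without C1 its adjusted p was 0.063. Saa3, a serum amyloid A made outside the liver as well, reached 13.6, 16.2 and 3.98 CPM from at most 0.263 CPM in control (log2 fold change 5.88 ± 0.65, adjusted p = 0.00031). Lcn2, which binds bacterial siderophores, reached 2.16, 7.06 and 1.79 CPM from at most 0.301 CPM (log2 fold change 4.45 ± 0.73, adjusted p = 0.0018). Crp, the classical human acute-phase pentraxin, fell by 3.24 on the log2 scale (adjusted p = 0.00185), and Cd14, a co-receptor for lipopolysaccharide, fell by 2.01 (adjusted p = 0.00018). The complement component gene C3, which shares its name with a mouse, and Lbp overlapped between the groups, at 5.34 to 10.3 and 5.56 to 14.7 CPM for the complement gene and at 39.2 to 49.0 and 19.8 to 67.4 CPM for Lbp. Of these 16 genes, 10 were highest in H5 and 6 in H9.

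**Figure D4:**
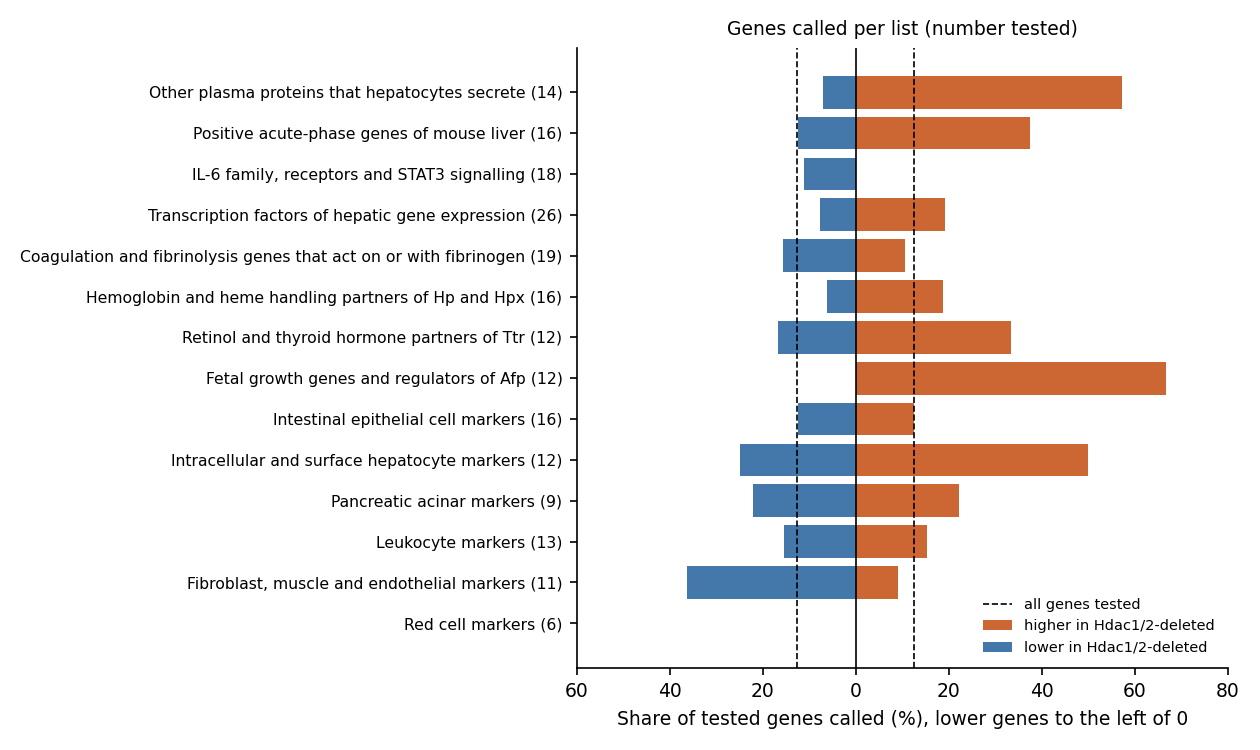
Percent of tested genes called increased and decreased in Hdac1/2-deleted IEC for each gene list, with the tested number beside each name. Dashed lines give the share among all 15618 genes, 12.4% increased and 12.7% decreased, and IL-6 and STAT3 genes stand at 0% increased. The bar of other plasma proteins cannot be read against the dashed line, since 6 of its 8 increased genes were tested only through their counts in Hdac1/2-deleted mice. Increased genes of that kind also stand at least in the acute-phase (Hamp, Saa3, Lcn2), fetal (Igf2bp1), retinol (Lrp2), hepatocyte (Tat, Gnmt) and pancreatic (Ctrb1) bars. These bars carry the same limit.

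Transcripts of the interleukin-6 and STAT3 pathway, which drives the acute-phase genes in liver, did not rise as a list. Transcript counts do not show phosphorylation of STAT3 or its place in the cell, so activity of the pathway was not tested. In mutant jejunum, the paper reports more phosphorylated STAT3 in IEC by Western blot and more nuclear STAT3 staining. Of 18 tested, 0 rose and 2 fell in edgeR's test, with 1 higher gene at an unadjusted p under 0.05 and 0 raised in DESeq2, and their median log2 fold change was -0.20. With no fold limit 5 of them passed, 1 higher and 4 lower. The higher gene was Ptpn11, the phosphatase SHP2, at a log2 fold change of 0.51. Stat3 was at 146 to 179 CPM in control and 162 to 204 CPM in Hdac1/2-deleted mice (log2 fold change 0.17 ± 0.15, adjusted p = 0.42). Il6ra, the interleukin-6 receptor, was below 1 CPM in all 6 libraries (adjusted p = 0.33), and Il6 was not analysed here. Socs3, a feedback inhibitor that STAT3 induces, was at 9.33, 8.41 and 46.6 CPM in control and 45.7, 108 and 26.3 CPM in Hdac1/2-deleted mice, so the groups overlapped (adjusted p = 0.26). It passed without C3-3, at a log2 fold change of 2.77 and an adjusted p of 0.025. Cish, another feedback inhibitor of JAK-STAT signalling, fell by 3.73 on the log2 scale (SE 0.35, adjusted p = 7.4e-05), from 10.2 to 18.95 CPM to 0.729 to 1.37 CPM. Il11ra1, the interleukin-11 receptor, fell by 1.33 (adjusted p = 0.013), and not without C3 (adjusted p = 0.055).

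Transcription factors of hepatic gene expression were mostly present in both groups. Of 26 tested, 5 rose and 2 fell, a share of 26.9% against 25.2% of all genes. Hnf4a, a nuclear receptor of liver and gut, was at 678 to 754 CPM in control and 556 to 620 CPM in Hdac1/2-deleted mice (log2 fold change -0.30, adjusted p = 0.13). Foxa2 did not pass (0.23, adjusted p = 0.59), nor did Cebpb (0.58, adjusted p = 0.091), and Cebpa passed the adjusted p at less than 2-fold (0.65, adjusted p = 0.0099). Prox1, a homeobox factor of hepatoblasts, rose from 1.31 to 1.67 CPM to 8.03 to 9.75 CPM (log2 fold change 2.55 ± 0.24, adjusted p = 7.3e-05). Foxa3, a forkhead factor of liver and gut, rose from 9.11 to 12.01 CPM to 35.2 to 35.8 CPM (log2 fold change 1.71 ± 0.16, adjusted p = 7.4e-05), and Atf5 and Hhex rose by 2.02 and 1.95 on the log2 scale. Cebpd was called at an adjusted p of 0.048, and lost the call without any 1 of 5 libraries (C3, C3-3, H1, H5 or H9), with adjusted p-values of 0.056 to 0.15. Creb3l3, a membrane-bound factor of liver and gut, fell by 1.18 (adjusted p = 0.0012), and by just under 2-fold on library totals (-0.99).

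Genes that share the fetal expression of Afp, or are known to control it, divided. Zhx2 and Zbtb20, which repress Afp in the liver after birth, did not pass, with log2 fold changes of -0.34 (adjusted p = 0.073) and -0.47 (adjusted p = 0.25). Of the 12 genes of this list, 8 rose and 0 fell by edgeR and by DESeq2, with 1 lower gene at an unadjusted p under 0.05. Of all genes, 12.4% rose and 12.7% fell in edgeR's test. The list was chosen with earlier results known. Igf2bp1, at a mean of 0.0301 CPM in control, was tested only through its counts in Hdac1/2-deleted mice. The share of this list is thus not read against that of all genes. Igf2, a fetal growth factor, rose from 2.77 to 4.18 CPM to 809 to 1735 CPM (log2 fold change 8.65 ± 0.40, adjusted p = 3.6e-06), and H19, the RNA beside it, rose by 9.57 on the log2 scale (adjusted p = 2.85e-05). Igf2bp1 and Igf2bp3, fetal RNA-binding proteins, rose by 6.62 and 5.65. Afp did not rise with them.

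Partners of the members were measured in the same libraries. Among 19 coagulation and fibrinolysis genes tested, 2 rose and 3 fell, a share of 26.3% against 25.2% of all genes, and the median log2 fold change was -0.36. Icam1, an adhesion receptor that binds fibrinogen, rose from 0.936 to 2.16 CPM to 16.6 to 35.4 CPM (log2 fold change 3.88 ± 0.41, adjusted p = 0.00019). Serpinf2, the plasmin inhibitor that is linked to fibrin, rose from 4.03 to 4.36 CPM to 18.9 to 25.7 CPM (log2 fold change 2.44 ± 0.19, adjusted p = 2.9e-05). F2, the gene of prothrombin, stayed at or below 0.423 CPM in all 6 libraries (adjusted p = 0.17). Fgl2, a membrane protein with a fibrinogen-like domain, fell by 1.07 (adjusted p = 0.00088), and by less than 2-fold without C3-3 (-0.95) and on library totals (-0.88).

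For transthyretin, 12 retinol and thyroid hormone partners were tested, and 4 rose and 2 fell, a share of 50% against 25.2% of all genes, at a median log2 fold change of 0.05. Lrp2, the endocytic receptor megalin, which takes up both retinol-binding protein and transthyretin, rose from at most 0.121 CPM to 12, 38.4 and 32.3 CPM (log2 fold change 9.03 ± 0.84, adjusted p = 0.00027). It was tested only through its counts in Hdac1/2-deleted mice, so that the share of this list is not read against that of all genes. Lrat, which esterifies retinol for storage, fell by 2.42 (SE 0.24, adjusted p = 0.00011), and Dio1, which activates thyroxine, fell by 2.03 (adjusted p = 2.2e-05).

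For hemopexin, 16 hemoglobin and heme partners were tested, and 3 rose and 1 fell, a share of 25% against 25.2% of all genes, at a median log2 fold change of 0.04. Hmox1, which degrades heme, rose from 0.504 to 0.790 CPM to 2.81 to 4.08 CPM (log2 fold change 2.44 ± 0.33, adjusted p = 0.00056). Cybrd1, a ferric reductase of the brush border, rose by 3.12 (adjusted p = 0.0089). Lrp1, the receptor for heme bound to hemopexin, was at 537 to 649 and 351 to 610 CPM and did not pass (adjusted p = 0.43). Blvra, which reduces biliverdin, fell by 1.01 (adjusted p = 0.0011), and by less than 2-fold without C3 or H9 (-0.95), with median-ratio size factors or DESeq2 (-0.995 and -0.996) and on library totals (-0.81).

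Markers of the cells that the preparation could hold were set beside these values. The 16 epithelial markers summed to 28889 to 32094 CPM in control and 23640 to 26681 CPM in Hdac1/2-deleted mice, and none was at 0. All 16 were tested, and 2 rose (Alpi and Krt18) and 2 fell (Slc15a1 and Fabp2), 25% against 25.2% of all genes. Mean Fabp2 went from 3398 CPM in control to 774 CPM in Hdac1/2-deleted IEC, and Slc15a1 from 742 to 115 CPM. Alpi lost its call without C1, C3-3, H1 or H5, and Krt18 without C3 or H5. Of 25 intracellular and surface hepatocyte markers, 18 were in the table and 12 tested, with 6 increased and 3 decreased (50% increased). They summed to 10.99 to 26.6 CPM in control and 22.7 to 36.6 CPM in Hdac1/2-deleted mice. Cyp2e1, an abundant liver cytochrome, had 0 counts in all 3 Hdac1/2-deleted libraries and 0.621 to 1.13 CPM in control, and the asialoglycoprotein receptor gene Asgr1 had 0.0270 CPM in H1 and 0 counts in H5 and H9. Other hepatocyte enzymes rose: Tat, which degrades tyrosine, reached 1.97, 12.9 and 1.15 CPM from at most 0.0906 CPM (adjusted p = 0.0056), and Gnmt and Bhmt rose by 4.48 and 3.72 on the log2 scale. In the libraries in which Fga, Ambp and Hpx were higher, Alb and Cyp2e1 were thus lower and Tat, Gnmt and Bhmt higher. Tat and Gnmt passed the low-count filter only through their counts in Hdac1/2-deleted mice, so that the share of this list is not read against that of all genes.

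The 16 leukocyte markers summed to 74.4 to 196 CPM in control and 58.4 to 104.5 CPM in Hdac1/2-deleted mice, with 2 of 13 tested increased (the myeloid gene Csf1r and, except without H9 at an adjusted p of 0.056, Cd4) and 2 decreased. The T cell genes Cd8a and Cd3g, the decreased pair, lost their calls without C3, C3-3, H1 or H5, and Cd8a also without H9. Without C1 there were 6 decreased genes, with Ptprc, Cd3d, Cd3e and Nkg7 added. The 14 stromal markers summed to 11.8 to 73.4 and 22.3 to 31.7 CPM, with Pdgfrb increased and 4 genes decreased, among them the smooth muscle gene Acta2 (0.602 to 12.5 CPM in control and at most 0.0975 CPM in Hdac1/2-deleted mice). Of the 4, only Acta2 was still called without H1. Myh11 and Des also lost their calls without H9, and Dcn without C1 or H5. The 8 red cell markers summed to 3.73 to 75.8 and 13.4 to 22.8 CPM, with 0 of 6 called by edgeR or DESeq2 and 1 at an unadjusted p under 0.05. Without C3, the library with the highest sum, Hba-a2 was called increased (log2 fold change 6.74), and without C3-3 or H1 Epb42 was called decreased (-2.06 and -2.64). The 14 pancreatic markers summed to 4424 to 5820 and 1516 to 2416 CPM, nearly all from Zg16, which goblet cells also express. Of 9 tested, Ctrb1 and Cela1 were increased, Zg16 fell by 1.41 on the log2 scale, and Clps, the gene of colipase, fell by 5.21 from 45.4 to 58.7 CPM to 1.07 to 1.84 CPM. Ctrb1 passed the low-count filter only through its counts in Hdac1/2-deleted mice. The part of such cells in the members' levels was not tested, and in bulk samples more cells of a type and more RNA per cell cannot be told apart.

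Genes next to the members were called in both directions. Within 250 kb of a member, 30 other genes were tested, and 3 rose and 5 fell, 26.7% against 25.2% of all genes, at a median log2 fold change of -0.06. Of the 3, Col27a1 had 20, 29 and 6 counts in C1, C3 and C3-3. It passed the low-count filter only through its counts in Hdac1/2-deleted mice, so that this share is not read against that of all genes. At the fibrinogen locus Plrg1, a splicing factor gene 5.7 kb from Fgb, had a log2 fold change of 0.17 ± 0.14 (adjusted p = 0.34), and Lrat, 103.8 kb from Fgg, fell. At the albumin locus Afm, 10 kb from Afp, fell as given above, Ankrd17 and Gm9958 were at -0.07 and -0.26 (adjusted p = 0.72 and 0.84), and Rassf6 and Cox18 were at -0.77 and 0.85, under 2-fold, and Cox18 at 1.02 without H9. Near Hpx, Trim3 (4.3 kb away) fell by 1.71 and Smpd1 (33.2 kb) fell by 1.96, whereas Apbb1 (10 kb) rose by 1.07, a call that was lost without C3, C3-3, H5 or H9. 9130208D14Rik (224.1 kb) fell by 1.66 at an adjusted p of 0.0499, and lost the call without C1, C3, H5 or H9, with no filter on low counts and on library totals. The other 10 of the 14 genes tested near Hpx were not called: Fam160a2, Cavin3, Arfip2, Timm10b, Dnhd1, Rrp8, Ilk, Taf10, Tpp1 and Mrpl17. Near Ambp, Col27a1 (59.2 kb) rose by 2.63 and Kif12 (10.8 kb) by 1.16, while Zfp618 (3.6 kb) and Akna did not pass. Of the 5 genes tested near Ttr, Dsg4, Dsg2, Gm10269, B4galt6 and Trappc8, 0 were called by edgeR or DESeq2 and 0 had an unadjusted p under 0.05.

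Likeness to the members over the 6 libraries was measured as the root mean square difference between centred log2 CPM profiles, over 11842 genes, as a description. These profiles used a prior count of 2, scaled to library size. Fgb and Fgg had 0 counts in control, so that this prior count limits the size of their change in the mean profile. The profile closest to the mean of the 3 fibrinogen genes was that of Cercam, at 0.280, followed by Emid1 at 0.367, Zfp385a at 0.379, Nynrin at 0.392 and Chrm4 at 0.413. Cercam went from 0.287 to 0.342 CPM in control to 15.1, 27.5 and 25.4 CPM in H1, H5 and H9. Closest to Alb were Lrrc26 at 0.0602 and Tff3 at 0.0750, then Mast4 at 0.113, Dennd1a at 0.1252 and Rcn2 at 0.129. Tff3, a trefoil peptide of goblet cells, was at 1406 to 1586 CPM in control and 438 to 593 CPM in Hdac1/2-deleted mice.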

How the data were processed

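Poly(A) RNA of jejunal IEC was sequenced as paired reads from 3 control and 3 Hdac1/2-deleted mice, 1 library per mouse. The authors deposited raw counts per gene. They aligned the reads with STAR (2.4.0f1 in the submitters' processing notes). The methods give GRCm38 and the processing notes mm9, and the counting program and its strand setting are not given in the sources used here. The table's 6 columns of scaled counts per sample and its columns of the authors' own fold changes and p-values were not used.

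Counts were analysed with edgeR 4.0.16 in R 4.3.3 (filterByExpr, TMM, robust quasi-likelihood fit, default prior count, no covariates), which tested 15618 of 19616 genes. P-values were adjusted by Benjamini-Hochberg over these, and a call needed an adjusted p of at most 0.05 and 2-fold. The SE was taken as the absolute log2 fold change over the square root of F. With 3 mice per group, p-values set the difference between the groups against the spread between these mice, estimated with information from all genes tested. Exon lengths and positions came from GENCODE models on GRCm38, matched by identifier for 19526 genes, and sequences from RefSeq. Plots used matplotlib 3.10.9 in Python 3.11.15. Steps were tested on simulated data.

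The members and gene lists were chosen with earlier results of these data known. Named genes were all members, Hdac1 and Hdac2, up to 4 called genes of each list with the largest change, mean log2 CPM from 0 upward and groups that do not overlap, Hnf4a, Foxa2, Cebpa, Cebpb, Stat3, Socs3, Il6, Il6ra, Zbtb20 and Zhx2, the tested neighbours, and the 5 profiles most like the fibrinogen mean and Alb. Some genes that this rule takes are not reported here. Other genes named were chosen after their values were seen. Alternatives changed the normalization, test (DESeq2 1.42.0), filter, prior count and limits, or left out 1 mouse.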

Additional observations from a re-analysis of the deposited data

How the results depend on the processing

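No paired analysis was possible because the mouse names of the groups share only the number 1. Recomputed under the alternatives, 174 summary values stayed within 1.5 times the value reported and 8 did not. With no fold limit, 3198 genes were increased and 3168 decreased in all. Among them were 5 interleukin-6 and STAT3 genes (1 higher and 4 lower), 13 hepatic transcription factors and 13 neighbouring genes. With an adjusted p limit of 0.01 these were 1 STAT3 gene and 5 neighbouring genes. Leaving out 1 mouse gave 1 to 3 called STAT3 genes, with 1 when C3 was left out and Il11ra1 lost its call. On library totals without TMM, which moved the median log2 fold change of all genes from -0.01 to 0.18, 2463 genes were increased and 1538 decreased, against 1944 and 1990. With each mouse left out, 5 to 6 members were increased and 1 was decreased. Fgb passed with no filter on low counts. Of the members' recomputed log2 fold changes, 71 moved by less than the SD between replicates, 6 by more and 0 changed sign: Fga was at 11.92 without C3-3, Fgg at 8.47 by DESeq2 and 5.06 with a prior count of 2, Afp at 0.26 on library totals, Ttr at 3.07 without H9 and Hpx at 8.35 without C1. DESeq2 gave no adjusted p for 26 genes, none of them a member. Depth limits Fgb, Fgg and the control levels of Fga and Hpx, which rest on 0 to 13 counts over the control group. RNA of other cells was not tested.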
